A study of Mus musculus with 15 samples.

Results

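The genes described here encode the proteins of the mitochondrial ribosome. Members were the protein-coding genes whose symbol starts with Mrpl or Mrps followed by a number, with pseudogenes left out. The rule found 78 of the 78317 genes in the count tables, of which 49 carry an Mrpl name (large subunit) and 29 an Mrps name (small subunit). They were measured by bulk RNA-seq in ventricles of C57BL/6 mouse embryos at embryonic day 11.5 in 15 libraries from 2 floxed Atf4 lines. In the CDS line, loxP sites flank exons 2 and 3 of Atf4 and leave its polyadenylation signal in place, and 4 knockout and 4 control libraries were analysed. In the PAS line, loxP sites flank the polyadenylation signal itself, and 4 knockout and 3 control libraries were analysed, of the 4 replicates per genotype that the design text gives. Knockouts of both lines carry Xmlc2-Cre, which acts in cardiomyocytes, so the other cells of the ventricle keep the gene. The labels call the remaining embryos only controls, so their Cre and loxP alleles are not stated.

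Mitochondrial ribosomes descend from bacterial ones and translate the few messages of the mitochondrial genome, all of which encode subunits of the respiratory chain and of the ATP synthase. Their RNAs are transcribed in the organelle, whereas every protein of the particle is encoded in the nucleus, made in the cytosol and imported. Some of these proteins have kin in the bacterial ribosome and others are found in mitochondria alone. Heart muscle depends heavily on the respiratory chain, and inherited defects of several members, among them MRPL3, MRPL44 and MRPS22, cause cardiomyopathy in humans. ATF4 is the transcription factor of the integrated stress response and drives genes of amino acid synthesis and transport, in part through CEBP-ATF response elements in their promoters. The comparisons ask whether the level of these genes differed when either Atf4 allele was deleted in cardiomyocytes.

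The promoters of 5 members are shown, from 100 bases before to 30 after the transcription start. Promoters of members held motifs of mitochondrial regulators more often than those of other genes. All 5 shown hold such a motif, but they were picked and do not show how frequent the motifs are. In the longer window described below, 43 of the 69 members with a promoter hold at least 1. No share over tested genes was computed for that count. Other named members, such as Mrps34, are not shown. Whether a motif bears on how a member varied between libraries was not tested. Mrpl12 has the highest level per kilobase, Mrps18a and Mrpl17 have the smallest p-values in the CDS and the PAS knockouts, Mrpl43 is among the most negative changes in both lines, and Mrpl57 differs most between the controls. Sequences are from RefSeq (GRCm38.p6), 5′ to 3′ on the strand of the gene, and capitals mark matches on either strand to NRF1 (GCGCNTGCG), to the ETS motif bound by GABPA (CCGGAAG) and to YY1 (AAGATGGCG).
Mrpl12, chr11:120484537-120484666, plus strand: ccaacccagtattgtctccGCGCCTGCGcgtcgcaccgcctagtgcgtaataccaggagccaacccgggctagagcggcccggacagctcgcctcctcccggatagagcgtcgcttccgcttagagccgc
Mrpl17, chr7:105811058-105811187, minus strand: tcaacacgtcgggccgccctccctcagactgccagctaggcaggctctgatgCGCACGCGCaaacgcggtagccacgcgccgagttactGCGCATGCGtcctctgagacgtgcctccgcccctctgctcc
Mrpl43, chr19:45006413-45006542, minus strand: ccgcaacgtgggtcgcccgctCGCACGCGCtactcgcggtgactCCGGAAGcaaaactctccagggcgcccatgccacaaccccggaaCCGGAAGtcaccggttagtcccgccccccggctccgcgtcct
Mrpl57, chr14:57826139-57826268, plus strand: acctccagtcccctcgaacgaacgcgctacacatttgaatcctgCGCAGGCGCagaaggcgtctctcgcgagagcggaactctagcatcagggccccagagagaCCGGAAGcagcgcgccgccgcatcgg
Mrps18a, chr17:46110904-46111033, plus strand: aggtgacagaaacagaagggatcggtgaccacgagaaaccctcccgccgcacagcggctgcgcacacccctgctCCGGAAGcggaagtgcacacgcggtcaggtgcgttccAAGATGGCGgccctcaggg

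Positions are counted from the transcription start, whose first base is 1. The NRF1 match of Mrpl12 begins at position -81, and those of Mrpl17 begin at -48 and -11. Mrpl43 has an NRF1 match at -79 and ETS matches at -56 and -12. Mrpl57 has an NRF1 match at -56 and an ETS match at 5, and Mrps18a an ETS match at -26 and a YY1 match at 12. RefSeq promoters from 250 bases before to 50 after the start were matched for 69 of the 78 members, and a gene was counted once when any of its promoters held a motif on either strand. NRF1, a factor that activates nuclear genes of mitochondria, had matches in 18 of these 69 members (26.1%) and in 13.5% of the 12234 tested genes with a promoter. The ETS motif was present in 26 members (37.7%) against 17.8% of tested genes, and YY1 in 8 (11.6%) against 3.05%. At least 1 of these 3 motifs was present in 43 members and at least 2 in 9, counts for which no share over tested genes was computed. The matches lay near the start, with 28 of 31 ETS matches and 21 of 26 NRF1 matches in the members beginning within 100 bases before it or after it. The SP motif (GGGCGG) was found in 34 members (49.3%) and 64.9% of tested genes, the CCAAT box in 27 (39.1%) and 41.9%, and the TATA box (TATAAA) in 5 (7.25%) and 9.38%. The CEBP-ATF response element (TGATGNAA) had no match in the windows of the 69 members and a match in 2.77% of tested genes, which says only that these letters are not in these windows. None of these motifs contains another, although matches may overlap in part, and no test was made of these shares.

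**Figure D1:**
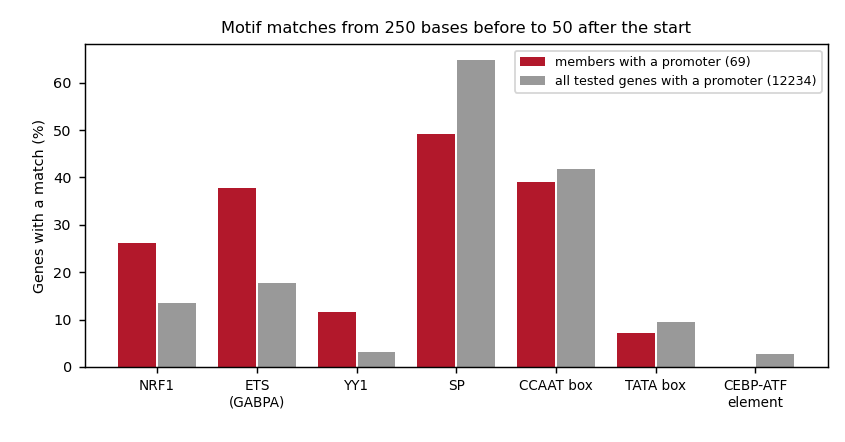
Share of genes (%) with a match to each motif between 250 bases before and 50 after the start, for the 69 members with a RefSeq promoter (red) and the 12234 tested genes with one (grey). NRF1 (26.1% and 13.5%), ETS (37.7% and 17.8%) and YY1 (11.6% and 3.05%) were more frequent in members, and SP less so (49.3% and 64.9%).

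The members also differ from other genes in where they start. They lie on 17 chromosomes, with none on 12, 18, X or Y. The start of 33 of the 78 (42.3%) lies within 1000 bases of the start of a protein-coding gene on the opposite strand, which holds for 2136 of 14396 tested protein-coding genes (14.8%). Some of these neighbours also act in mitochondria, and the pairs named here are examples. The neighbours were not counted by function. Mrps12 starts 172 bases from Sars2, the mitochondrial seryl-tRNA synthetase, and Mrps27 starts 81 bases from Ptcd2. In other pairs the genes overlap at their starts, as for Mrpl43 with Twnk, the mitochondrial DNA helicase, and for Mrpl36 with Ndufs6 and Mrpl47 with Ndufb5, subunits of respiratory complex I. Mrps11 and Mrpl46 form the single pair in which both genes are members. Coordinates of genes are those of the count files, on GRCm39.

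Depth and the targeted gene were examined first. Total counts ran from 22623499 to 46472141 per library and were lower in the PAS line (22623499 to 29315724) than in the CDS line (30376847 to 46472141), whose files were also counted in a separate run. The labels conflict on the source and preparation of the RNA: the design text describes dissected ventricle and poly(A) selection, and the extraction protocol describes cultured cortical neurons and ribosomal RNA depletion. The 10 cardiomyocyte markers summed to between 34941 and 41275 normalised CPM (counts after correction for sequencing depth) in every library and the 6 neuronal markers to between 8.01 and 24.7, with Neurod1 at 0 in at least 1 library. Atf4 stood at 39.6, 48.1, 45.3 and 45.05 normalised CPM in the CDS knockouts and at 114, 112, 116 and 115 in their controls, a log2 change of -1.36 ± 0.05 (SE, adjusted p = 1.25e-13, edgeR quasi-likelihood test). In the PAS line it was higher in the libraries labelled knockout (304, 292, 288 and 259) than in those labelled control (98.9, 92.2 and 100.1), with a log2 change of 1.56 ± 0.06 (adjusted p = 4.25e-14). A count over all exons of the gene does not show whether the polyadenylation signal was removed, so the PAS labels were taken as given.

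The 78 members took between 0.281% and 0.316% of all counts in each library. Of the 78, 77 passed the filter on low counts. The exception was Mrpl34, a large-subunit protein with kin in bacteria, which had 2 to 17 counts per library in the CDS line and 0 to 6 in the PAS line, and 80.6% of whose counted exon sequence is shared with an unnamed gene on the opposite strand. Among the 77, the mean level in the 7 controls ran from 4.71 normalised CPM (Mrps21) to 131 (Mrpl12), with a median of 33.5. Mrpl12 (ENSMUSG00000039640.8, chromosome 11, 120375439 to 120379891, plus strand, 5 merged exons) forms the stalk that recruits translation factors to the large subunit. Its level was 132, 130, 115 and 135 in the CDS knockouts and 141, 137, 126 and 125 in their controls, and 126, 129, 129 and 122 against 135, 130 and 123 in the PAS line, so that both pairs of groups overlapped.

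Per kilobase of counted exon, the control level spanned 25.9-fold, from 3.296 (Mrpl33) to 85.3 (Mrpl12). After Mrpl12 came Mrpl54 (65.2), Mrpl28 (47.3), Mrpl53 (35.9), Mrps23 (35.2) and Mrpl36 (33.9), and above Mrpl33 at the low end came Mrps25 (4.13), Mrpl48 (4.25), Mrps34 (4.40), Mrps10 (4.43) and Mrps30 (4.64). Large-subunit members had a median of 16.8 per kilobase (50 genes) and small-subunit members 9.58 (26 genes). This order depends on the length used: with the longest coding transcript of each gene, 3 of the 6 highest and 1 of the 6 lowest kept their place, and Mrpl33, whose counted exons include long models, moved from the lowest value to rank 6 from the top at 50.5. Mrps36 is left out of both subunits because the protein is known as a part of the oxoglutarate dehydrogenase complex. Mrps30 and Mrps18a, despite their names, are counted with the large subunit, where their proteins sit.

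Shared exon sequence bears on these levels, because the header shows neither a strand option nor one for fragments that overlap several genes, which are then left uncounted. In 42 of the 78 members (53.8%) some exon base is shared with another gene on either strand, close to the 51.8% of tested protein-coding genes. At least 10% of the exon length is shared in 24 members (30.8%) against 18.7% of those genes. The largest shares after Mrpl34 were in Mrps34 (77.8%, mostly with Mapk8ip3), Mrps25 (69.8%, with Nr2c2), Mrpl10 (58.0%, with Gm11574) and Mrpl22 (36.8%). The 8 tested members under 15 normalised CPM, a limit chosen after the values were seen, were Mrps21, Mrps34, Mrps28, Mrpl43, Mrps36, Mrps18c, Mrps18b and Mrps6. All were among the 23 tested members with at least 10% shared. Some are also short, as Mrps21 and Mrps28 with 739 and 783 bases of counted exon. The median was 23.9 normalised CPM in the 23 and 38.7 in the other 54, but 12.0 and 14.6 per kilobase of counted exon. Whether sharing lowered these levels was not tested. Levels of members with shared exon sequence are uncertain. Fragments from processed pseudogenes cannot be told apart either, although the 5 annotated for members held only 2 to 23 counts per library in all.

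**Figure D2:**
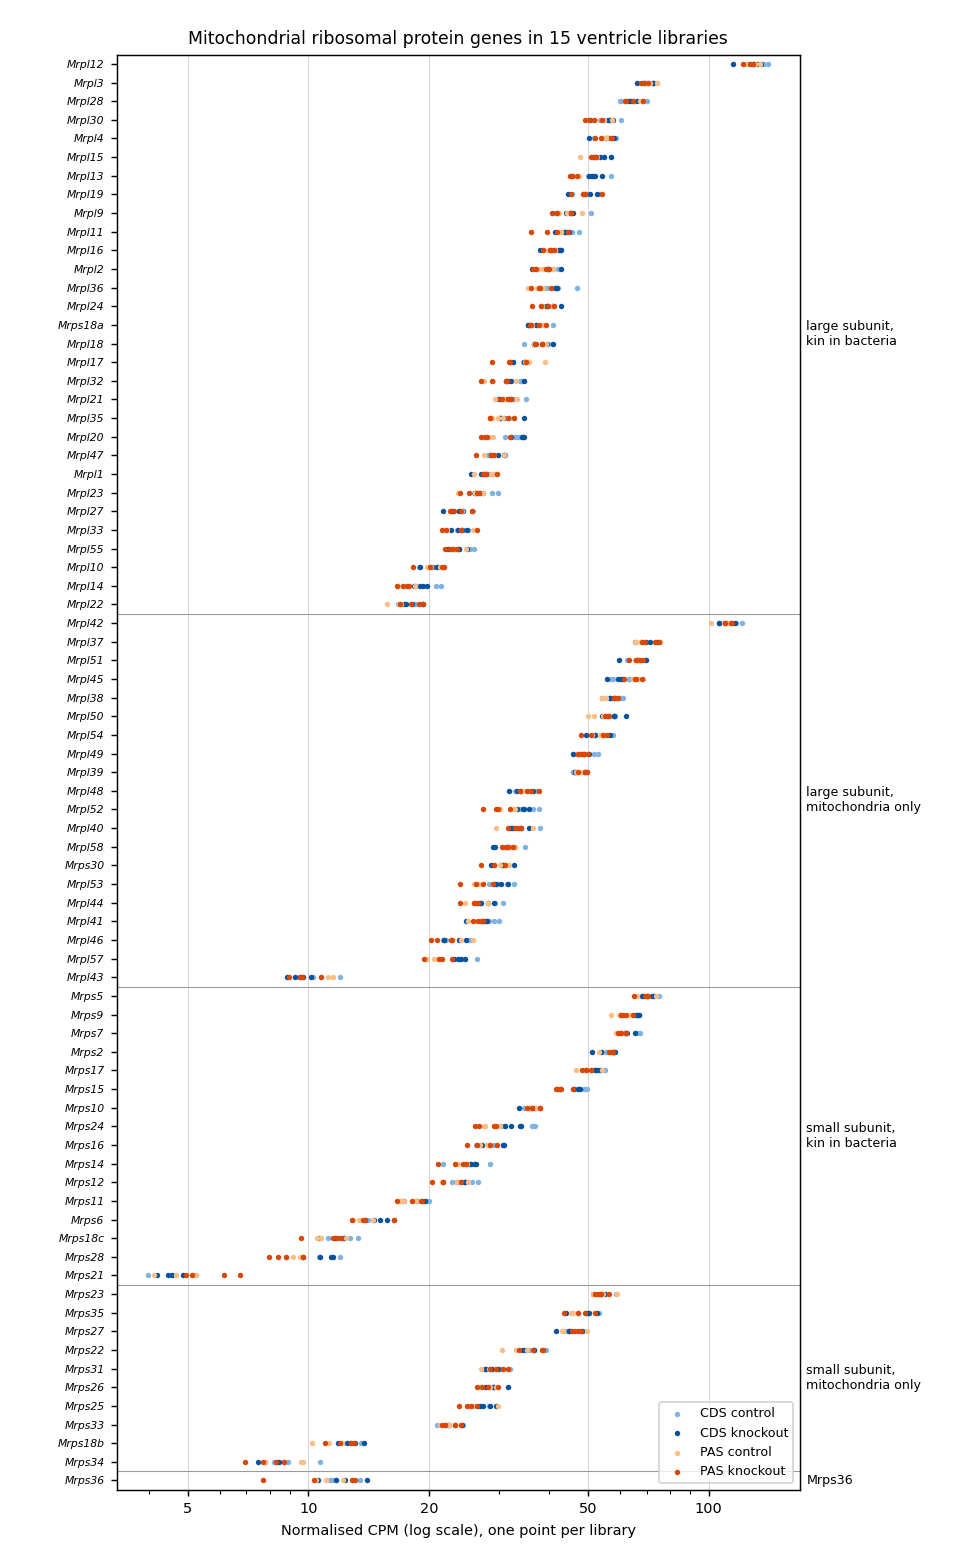
Level of the 77 tested members in each of the 15 libraries, in normalised CPM on a log scale, ordered by role and control level, with a colour per group. Levels run from Mrps21 (4.71 in the controls) to Mrpl12 (131). The PAS controls lie wholly below the CDS controls in 13 members (5.16% of all genes) and wholly above them in 1 (4.3% of all genes).

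Spread between replicates was small. The biological coefficient of variation, the spread beyond counting error as edgeR estimates it, had a median of 5.29% over the 77 members and of 9.51% over all 20269 genes tested, and 75 of the 77 members lay below the latter. It was lowest for Mrpl38 (3.98%), a protein found in mitochondria alone, and highest for Mrps36 (12.2%). Members were not compared with other genes of like level, so these values do not show low spread to be a trait of theirs.

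In the CDS knockout no member passed the test. None of 77 reached an adjusted p of 0.05 with edgeR's quasi-likelihood test, with DESeq2 or with limma-voom, where 0.0543% of all genes tested (11 of 20269) did with edgeR. At an unadjusted p under 0.05 there was 1 member, against 532 genes in all (2.62%). Groups were apart in no member in either direction, where 1.48% of all genes had every knockout above every control and 1.32% had every knockout below. Log2 changes of the members ran from -0.19 (Mrps34) to 0.08 (Mrps28) with a median of -0.03, which is a fold of 0.982, and 62 of 77 were negative. Over all genes the median was -0.00 and 50.6% were negative.

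The member with the smallest p in this line was Mrps18a (ENSMUSG00000023967.10, chromosome 17, 46421912 to 46439836, plus strand, 6 merged exons), the relative of bacterial S18 that occupies the large subunit. Its level was 35.8, 35.3, 35.4 and 36.99 normalised CPM in the CDS knockouts and 40.9, 39.0, 38.2 and 36.9 in the controls, so that the lowest control lay within the knockouts. The log2 change was -0.11 ± 0.05 (SE, adjusted p = 0.9998, edgeR). The other relatives, Mrps18b and Mrps18c of the small subunit, had log2 changes of 0.00 ± 0.08 and -0.07 ± 0.08. Mrps34, a small-subunit protein specific to mitochondria, stood at 7.48, 8.42, 7.80 and 8.34 in the knockouts, against 10.7, 8.71, 8.20 and 8.91 in the controls (log2 -0.19 ± 0.10), and without control 1, the highest, the change was -0.11. Mrpl43 had -0.11 ± 0.08, and -0.04 without control 1. Mrpl38 was at 56.5, 56.7, 54.3 and 57.9 against 60.9, 60.3, 59.0 and 56.6 (log2 -0.07 ± 0.04). Positive values were led by Mrps28 (0.08 ± 0.09), Mrpl20 (0.05 ± 0.05) and Mrps16 (0.05 ± 0.06), and the groups of each overlapped. Leaving out 1 library gave 0.01 (control 3) to 0.16 (control 1) for Mrps28, 0.01 (control 4) to 0.09 (control 1) for Mrps16 and 0.03 (control 4) to 0.08 (knockout 3) for Mrpl20.

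These data place narrow bounds on any change. The 95% interval of the log2 change lay within 1.25-fold either way for 75 of the 77 members, the exceptions being Mrps34 and Mrps21, and within 1.5-fold for all 77. In bulk tissue, fewer cells of a type and less RNA per cell cannot be told apart, and cells other than cardiomyocytes contribute to every value, so the bounds hold for the ventricle and not for the cells that lost Atf4.

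The size of the median in the CDS line depended on single libraries, while its sign stayed negative in each of the 15 fits without 1 library, in which 44 to 67 of the 77 members were negative. Summed over the 77 members, the CDS controls stood at 3189, 3105, 2933 and 2928 normalised CPM (3039 ± 129, SD, n = 4) and the CDS knockouts at 3018, 2971, 2852 and 3082 (2981 ± 96.9, SD, n = 4). Controls 1 and 2 were the highest of the 15 libraries, and knockout 3 was the lowest. In control 1, 74 of the 77 members lay above the mean of all controls, and in knockout 3, 61 lay below it, so that members deviated together within a library. Without control 1 the median log2 change was -0.003, without control 2 it was -0.014 and without knockout 3 it was -0.008. Without knockout 4, control 3 or control 4 it was -0.043, -0.046 and -0.046. Knockout 3 also had 3.24% of its counts in a gene without a name (ENSMUSG00000119584.1), 0.191% to 0.643% elsewhere, and 2964 normalised CPM of mitochondrial ribosomal RNA against 985 to 1293 elsewhere. Liver and choroid plexus markers, 5 genes, summed to between 20.1 and 220.3 normalised CPM in the CDS knockouts and between 18.0 and 51.9 in their controls. Their part in the result was not tested.

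**Figure D3:**
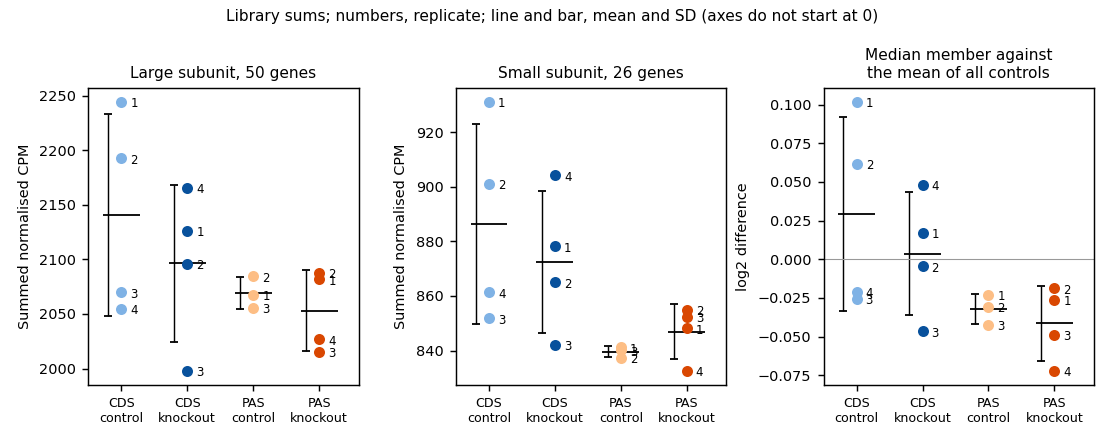
Summed normalised CPM of the 50 large-subunit and 26 small-subunit members, and the median log2 difference of the members from the mean of the 7 controls, by group. Points are libraries with their replicate number, lines are means and bars are SDs. The CDS controls split into replicates 1 and 2 (3189 and 3105 over all members) and replicates 3 and 4 (2933 and 2928), and the PAS groups lie close together.

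In the PAS knockout no member passed the test either. None of 77 had an adjusted p under 0.05 with edgeR, DESeq2 or limma-voom, where 0.00987% of all genes (2 of 20269) passed with edgeR. At an unadjusted p under 0.05 there were 6 members, 3 of them positive and 3 negative, which is 7.79% of members against 5.24% of all genes. The median log2 change was -0.01, with 45 of 77 negative, and the values ran from -0.20 (Mrpl43) to 0.30 (Mrps21). Sums over the members were 2940, 2951, 2881 and 2872 in the knockouts (2911 ± 40.2, SD, n = 4) and 2919, 2934 and 2907 in the controls (2920 ± 13.6, SD, n = 3).

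Among negative values, Mrpl17, a large-subunit protein with kin in bacteria, had the smallest p. Mrpl17 (ENSMUSG00000030879.11, chromosome 7, 105452413 to 105460306, minus strand, 2 merged exons) stood at 35.0, 28.7, 31.7 and 32.0 normalised CPM in the knockouts, against 35.5, 39.0 and 34.7 in the controls, where knockout 1 lay within the controls and the other knockouts below them. Its log2 change was -0.19 ± 0.06 (SE, adjusted p = 0.934, edgeR). Mrpl43, of the mitochondrial part of the large subunit, was at 9.55, 8.96, 10.8 and 9.63 against 11.5, 11.2 and 10.7 (log2 -0.20 ± 0.10). Of its exon sequence, 33.4% is shared with Twnk. Mrps34 again had a log2 change of -0.19 ± 0.11, with overlapping groups (8.68, 8.28, 6.94 and 7.72 against 9.58, 9.70 and 7.80). Mrpl46, named after its values were seen, had a log2 change of -0.16 ± 0.07, while Mrps11, with which it shares a promoter region, had 0.05 ± 0.08.

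Among positive values, Mrps22, a small-subunit protein specific to mitochondria, stood at 33.6, 38.6, 36.3 and 38.3 against 30.4, 35.2 and 33.0 (log2 0.16 ± 0.06), with knockout 1 inside the controls. Mrpl50 was at 55.1, 55.9, 55.8 and 56.4 in the knockouts, against 49.9, 51.6 and 54.3 in the controls (log2 0.10 ± 0.05, adjusted p = 0.934, edgeR). It was the single member with every PAS knockout above every control, where 2.21% of all genes had that order and 2.38% the opposite one, which no member had. In the CDS line its log2 change was -0.00 ± 0.04. Mrps21, the least abundant tested member, stood at 4.95, 6.75, 5.12 and 6.15 against 4.68, 5.24 and 4.12 (log2 0.30 ± 0.14), with overlap, and at -0.07 ± 0.12 in the CDS line. Mrpl22 had 0.15 ± 0.07. Intervals lay within 1.25-fold for 72 of the 77 members and within 1.5-fold for all 77. The exceptions to the first bound were Mrps21, Mrpl17, Mrps36, Mrps34 and Mrpl43.

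**Figure D4:**
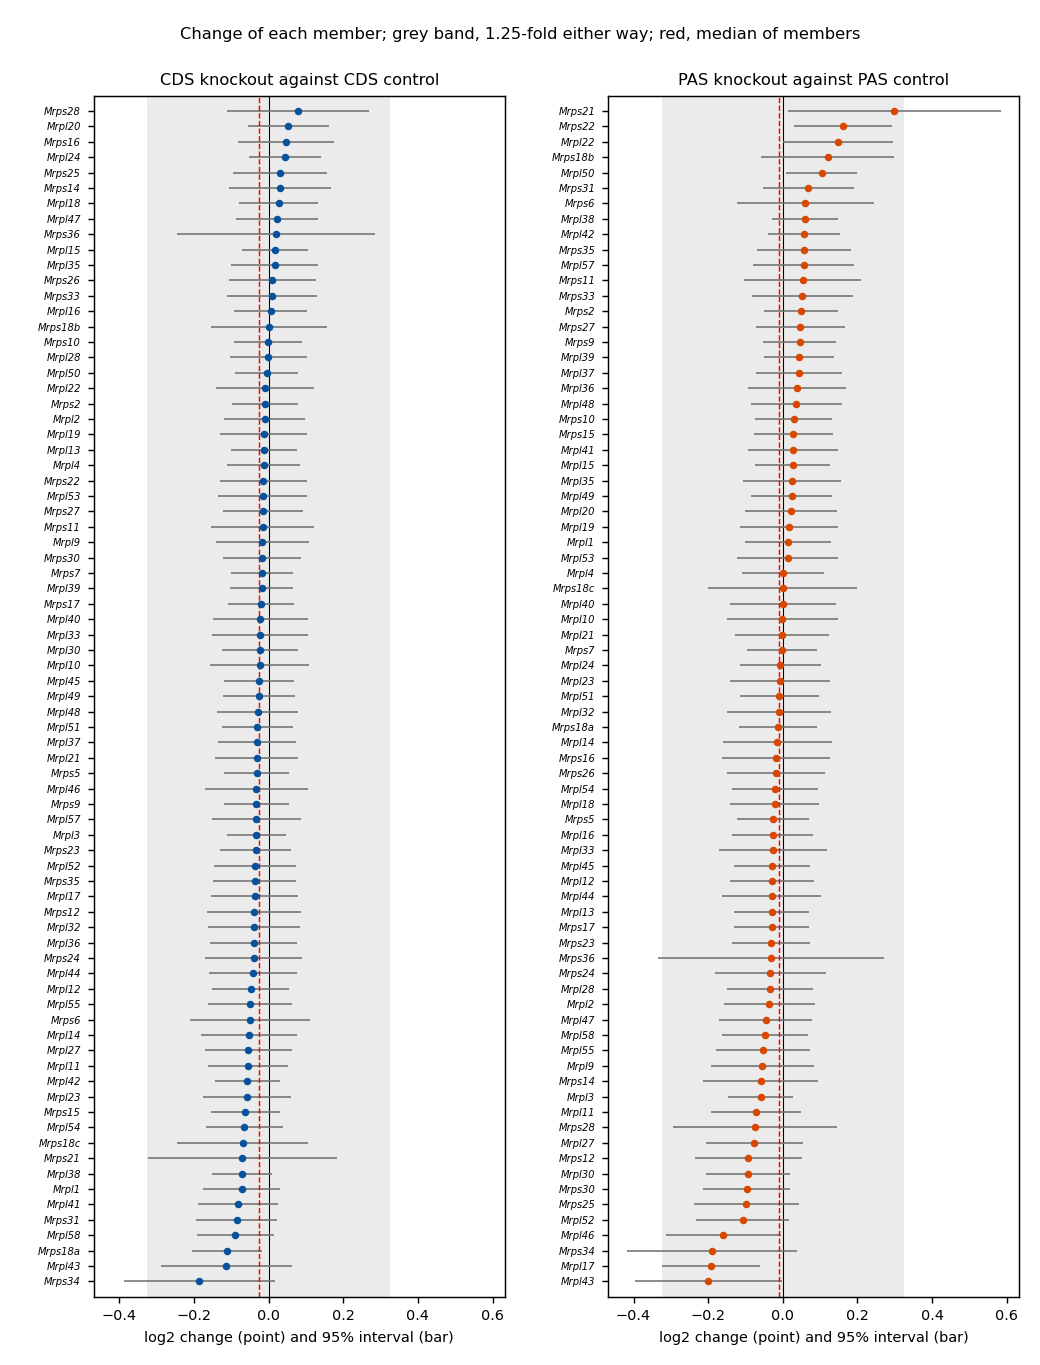
Log2 change of each of the 77 tested members in the CDS line (left) and the PAS line (right), sorted within each panel. Points are estimates, bars are 95% intervals, the grey band is 1.25-fold either way and the dashed line is the median (-0.03 and -0.01). Of the 77 bars, 75 on the left and 72 on the right lie inside the band.

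The lines were also compared with each other. For the mean of both knockout changes, 0.0789% of all genes passed (16 of 20269) and no member did. Here 3 members had an unadjusted p under 0.05, against 750 genes in all (3.70%), all of them negative: Mrpl17 (log2 -0.12 ± 0.04), Mrps34 (-0.19 ± 0.07) and Mrpl43 (-0.16 ± 0.06). No member had all knockouts on the same side of its controls in both lines, an order shown by 0.123% of all genes. For the difference between the changes, PAS minus CDS, 0.00493% of all genes passed (1 of 20269, which is Atf4) and no member did, with 2 members at an unadjusted p under 0.05 against 843 genes in all (4.16%). The smallest p-values were those of Mrpl38 (0.13 ± 0.06), Mrps22 (0.18 ± 0.08) and Mrps21 (0.37 ± 0.18). The interval of the difference lay within 1.25-fold for 66 members and within 1.5-fold for 76, the exception being Mrps21. The median difference was 0.02, and its sign turned without CDS control 1 (-0.009), CDS control 2 (-0.002) or CDS knockout 3 (-0.001).

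By role, changes were small in every group. Of the 50 large-subunit members, 43 were negative in the CDS and 32 in the PAS line, with medians of -0.03 and -0.01. Of the 26 small-subunit members, 19 and 12 were negative, with medians of -0.02 and 0.01. The 20 tested large-subunit members found in mitochondria alone were all negative in the CDS line (median -0.03), and 10 were negative in the PAS line (median 0.01). Of the 30 with kin in bacteria, 23 and 22 were negative (medians -0.02 and -0.02). In the small subunit, 13 and 8 of the 16 with kin were negative (-0.03 and -0.00), and 6 and 4 of the other 10 (-0.01 and 0.05). Mrps18b was counted among these 10 although it is a relative of bacterial S18, while Mrps18a and Mrps18c were counted with kin. Because members deviated together within a library, the counts of negative members are not counts of independent signs. The summed level of the large subunit was between 2.36 and 2.49 times that of the small subunit in every library. These sums are over 50 and 26 genes without correction for exon length, so the ratio does not compare levels per gene. The stalk base proteins Mrpl10 and Mrpl11 had log2 changes of -0.02 ± 0.06 and -0.05 ± 0.05 in the CDS line. Mrps12, of the decoding centre, had -0.04 ± 0.06, Mrpl45, which lies at the exit of the peptide tunnel, -0.03 ± 0.05, and Mrpl58, which releases stalled chains, -0.09 ± 0.05. Of the genes whose human counterparts are known from cardiomyopathy, Mrpl3 stood at 69.4, 72.5, 66.1 and 72.7 in the CDS knockouts, against 72.4, 70.1, 74.1 and 70.8 in the controls, a log2 change of -0.03 ± 0.04. Mrpl44 was at 29.2, 26.9, 26.9 and 28.05 against 30.7, 29.3, 26.5 and 28.01, with -0.04 ± 0.06. In the PAS line these values were -0.06 ± 0.04 and -0.03 ± 0.06. Mrps22 had a log2 change of -0.01 ± 0.06 in the CDS line and, as given above, 0.16 ± 0.06 with the PAS allele.

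Between the controls of the lines the members had the most negative median of the contrasts. No member was called with edgeR, DESeq2 or limma-voom, where 0.143% of all genes were (29 of 20269 with edgeR), but 63 of 77 had a negative log2 difference, PAS minus CDS controls, with a median of -0.05 against 0.00 over all genes, of which 48.7% were negative. At an unadjusted p under 0.05 there were 18 members, 17 of them negative, which is 23.4% of members against 9.60% of all genes. All PAS controls lay below all CDS controls in 13 members (5.16% of all genes) and above them in 1 (4.3% of all genes). Line, counting run and depth cannot be told apart here. The liver and choroid plexus markers summed to between 1.79 and 2.21 in the PAS controls and between 18.0 and 51.9 in the CDS controls, with Alb at 0 in at least 1 library, and their part in the result was not tested.

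The smallest p belonged to Mrpl57 (ENSMUSG00000021967.5, chromosome 14, 58063691 to 58066753, plus strand, 2 merged exons), a large-subunit protein specific to mitochondria. It was at 20.6, 19.8 and 21.1 normalised CPM in the PAS controls and 24.7, 26.3, 23.7 and 22.9 in the CDS controls, a log2 difference of -0.25 ± 0.06 (SE, adjusted p = 0.143, edgeR) with no overlap. Its PAS knockouts were at 21.5, 21.2, 19.5 and 22.9 and its CDS knockouts at 23.7, 24.0, 23.1 and 24.6. The highest of the former (22.9) lay just below the lowest of the latter (23.1), and no share over all genes was computed for that order. Mrps15 of the small subunit was at 42.1, 42.5 and 41.9 against 49.7, 48.7, 45.8 and 47.1 (log2 -0.18 ± 0.05, adjusted p = 0.182). Mrpl20 was at 27.1, 28.4 and 28.9 against 32.8, 33.6, 33.0 and 31.0 (-0.21 ± 0.06, adjusted p = 0.183). Of the 14 members with a positive difference, Mrpl45 was the one with an unadjusted p under 0.05, at 66.4, 68.4 and 64.6 against 63.3, 63.2, 57.0 and 57.5 (0.14 ± 0.05, adjusted p = 0.320). Without CDS control 1 the median difference was -0.02 and 11 members had an unadjusted p under 0.05, and without CDS control 2 there were 10 such members. The share over all genes was not computed for these fits. Without CDS control 3 or 4 the median was -0.07. Without PAS control 2 the count of members lying wholly lower was 25. Fewer libraries lie apart more easily, and no share over all genes was computed for that fit, so 25 cannot be set against 13.

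**Figure D5:**
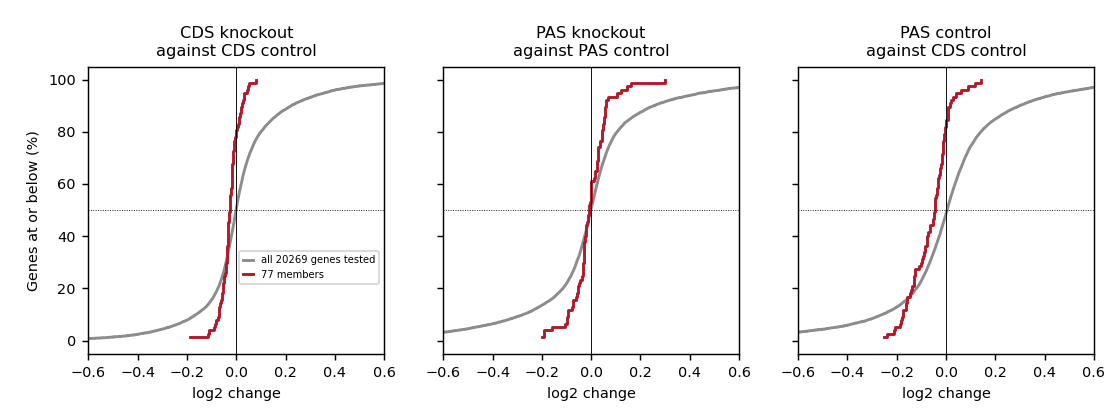
Cumulative share of genes (%) by log2 change for the 77 members (red) and all 20269 genes tested (grey) in the CDS knockout, the PAS knockout and the PAS controls against the CDS controls; values beyond 0.6 are not drawn. The curve of the members is steeper than that of all genes in each panel, and the medians of the members are -0.03, -0.01 and -0.05.

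Genes that work with the mitochondrial ribosome were read from the same fit, and none of the 81 tested was called in either knockout with edgeR, DESeq2 or limma-voom. At an unadjusted p under 0.05 there were 3 of them in the CDS and 4 in the PAS line, where 2.62% and 5.24% of all genes had such a p. The 5 mitoribosomal proteins with other names, among them Dap3 and Ptcd3 of the small subunit, had median log2 changes of -0.03 in the CDS and 0.03 in the PAS line. Dap3 stood at 75.4 ± 2.21 against 77.4 ± 2.43 normalised CPM in the CDS line (SD, n = 4 and 4). The 12 translation factors had medians of -0.04 and 0.04, and Tufm, the mitochondrial elongation factor Tu, had -0.08 ± 0.05 and 0.04 ± 0.05. The 26 genes of assembly and rRNA modification had medians of 0.01 and 0.00, with the smallest p for Mterf3 in the PAS line (adjusted p = 0.934, edgeR). Of 15 genes of mitochondrial transcription and RNA processing, 14 were tested, with medians of -0.01 and 0.01. The 9 nuclear regulators, which include Nrf1, Gabpa, Yy1 and Ppargc1a, had medians of -0.00 in both lines. The mitochondrial messages, 13 in number, had medians of -0.11 and 0.06, but 6 of them (mt-Co2, mt-Co3, mt-Atp6, mt-Atp8, mt-Nd3 and mt-Nd4l) had group means between 0.0805 and 2.75 normalised CPM and the other 7 between 1468 and 14399. These 6 values were not taken as levels of their messages, so the medians do not describe the mitochondrial messages as a whole. One of the 6, mt-Co3, was the single gene of these lists called between the controls (log2 1.21 ± 0.20, adjusted p = 0.00680), at 2.75 ± 0.49 in PAS and 1.20 ± 0.36 normalised CPM in CDS controls (SD, n = 3 and 4). The mitochondrial rRNAs mt-Rnr1 and mt-Rnr2 had log2 changes of 0.76 ± 0.33 and 0.51 ± 0.26 in the CDS line, where knockout 3 was far above the rest, and -0.05 ± 0.36 and -0.02 ± 0.29 in the PAS line.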

How the data were processed

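RNA-seq counts of 15 libraries were used as deposited. Per the file headers, the authors made these whole-number counts of read pairs per gene by featureCounts 2.1.1, using the exons of GENCODE mouse release 37 (GRCm39), no strand option and a separate run for each line. The submitters' processing notes also list fastp, FastQC, HISAT2 2.2.1, STAR 2.7.11b and DESeq2, without saying which aligner made these files. Names and gene types came by identifier from GENCODE release 21 (GRCm38), which named 51536 identifiers holding 98.9% of counts.

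Genes were kept by filterByExpr (minimum count 10), which left 20269, and scaled by TMM. All libraries were fitted with edgeR 4.0.16 (R 4.3.3, limma 3.58.1, robust quasi-likelihood, 11 residual degrees of freedom) with a mean per group, with Benjamini-Hochberg adjustment over all genes tested and a threshold of 0.05. SEs derive from the F statistic. DESeq2 1.42.0, limma-voom, other scalings and left-out libraries were alternatives. The chi-square per degree of freedom within 21 replicate pairs was at least 3.11, so none was merged. Replicates are biological per the design text.

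Named members were those with the 3 smallest p-values in each contrast, the 3 largest changes of each sign in each knockout, the 6 highest and lowest per kilobase, those with most shared exon sequence, those not past the filter, and 16 chosen by role. The members and lists were chosen with earlier results of these data known.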

Additional observations from a re-analysis of the deposited data

Results flagged for a closer look

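Within groups of 4 libraries, 114 combinations of named member and group were examined for a library far from the other 3, and 3 were found, where chance gives about 1 in 20. Mrpl20 stood at 32.1 normalised CPM in CDS knockout 3 and between 34.1 and 34.5 in the other CDS knockouts. Mrpl36 stood at 37.6 in the same library and between 41.3 and 41.9 in the others. Mrps7 stood at 65.4 in CDS knockout 4 and between 61.9 and 62.3 in the others. Both low values lie in the library with the lowest sum over the members and the high value in the CDS knockout with the highest.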

How the results depend on the processing

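No member was called in either knockout, in the mean or in the difference under any of the alternatives run, including DESeq2 size factors, DESeq2, limma-voom, the compared groups alone, no filter, removal of mitochondrial, haemoglobin and the unnamed gene, CDS knockouts 3 and 4 left out, and each library left out. With no filter on low counts (49584 genes tested), 2 members were called between the controls, Mrpl57 (log2 -0.27, adjusted p = 0.0368; 0.0368 to 0.433 over the alternatives) and Mrps24 (log2 -0.26, adjusted p = 0.0166; 0.0166 to 0.516), the latter added after its value was seen; the cause was not tested. Over the left-out libraries the median log2 change ran from -0.046 to -0.003 for the CDS knockout, -0.025 to -0.001 for the PAS knockout, -0.023 to -0.004 for the mean, -0.009 to 0.041 for the difference and -0.072 to -0.022 between the controls. Members sharing under 10% of exon length, an alternative chosen after seeing the data, gave -0.032 for the CDS and -0.012 for the PAS knockout. The count of all genes called moved more: with no filter it was 31 for the CDS knockout, 7 for the PAS knockout, 28 for the mean, 3 for the difference and 201 between the controls, and with DESeq2 it was 20, 7, 2 and 97 for the CDS line, the PAS line, the difference and the controls. With the replicate block, 0 members were called in any contrast, the medians were -0.026 and -0.004 in the CDS and PAS lines, 12 and 2 genes were called in all, and 14 members had an unadjusted p under 0.05 between the controls. For that count of 14 the share over all genes was not computed. Same-numbered libraries of different groups had correlations of their deviations between -0.322 and 0.201 over 21 pairs, with 2 over 0.1, so the numbers were not taken to pair the samples. Low counts kept Mrpl34 from being tested, and the median SE of a member's log2 change was 0.053 in the CDS and 0.060 in the PAS line.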
